A study of Mus musculus with 4 samples.

Results

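The genes described here encode the enzymes that make cholesterol, the regulators that control them, and the enzymes that make and modify fatty acids. The set was listed by symbol, as 16 sterol synthesis enzymes, 6 sterol regulators and 12 fatty acid enzymes, after Idi1 had been seen to differ between the E11 libraries. It was therefore chosen by the E11 difference between genotypes, and every E11 genotype value below is a description. Of the 34 listed genes, 32 had an entry of their own among the 21091 entries of the deposited expression tables. The expression of the sterol enzyme Hmgcs1 was not analysed here, and Tm7sf2 appeared only in an entry joined with its neighbour Vps51. Of the 32 genes, 31 averaged 1 FPKM or more across the libraries and belong to the 12449 genes analysed. The gene left out by this limit was Acacb.

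RNA sequencing covered neural progenitor cells from C57BL/6 mouse brains at embryonic day 11 (E11) or 14 (E14), grown in suspension for 3 days before lysis. At each stage 1 library came from WT embryos and 1 from embryos with a conditional knockout of Stat3 driven by Nes-cre (Stat3 cKO), which gives 4 libraries in all. Nes-cre is active mainly in neural progenitors and their descendants, and it removes the part of Stat3 that holds the SH2 domain. In the animal methods the controls are Nestin-Cre embryos with 1 floxed Stat3 allele, whereas the labels say WT, so it is unclear if the control libraries carried the Cre. The number of embryos behind each library is not given in the sources used here. With 1 library per group there is no replicate error to compare a difference with, and no test was made. Each value is an FPKM, that is, a fragment count divided by transcript length and by the mapped fragments of the library, so levels of different genes can be compared per length of transcript.

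Cholesterol is built from acetyl-CoA through the mevalonate pathway, which leads to isoprenoids, then to squalene, lanosterol and cholesterol. Its enzymes are largely controlled as a unit by the transcription factor SREBP2, the product of Srebf2, which SCAP escorts out of the endoplasmic reticulum when sterols are low and which INSIG proteins hold back when sterols are high. SREBP1, from Srebf1, acts more on the genes of fatty acid synthesis. SREBPs bind together with NF-Y, a factor that recognises the letters CCAAT. The developing brain makes most of its own cholesterol.

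The promoters of the sterol enzymes are shown first because the letters CCAAT were common in them. RefSeq promoter windows of 300 bases, from 250 before to 50 after the transcription start on GRCm38.p6, were given for 27 of the 34 listed genes. CCAAT was found on either strand in 12 of the 13 sterol enzymes with a window and in 75.0% of their 16 promoters, against 41.1% of all genes with a window and 37.4% of all 32851 promoters. Fatty acid enzymes held it in 6 of 9 genes and regulators in 4 of 5. The 5 stretches of 45 bases below lie upstream of the start and come from the 4 sterol enzymes with an E11 genotype ratio of at least 2 and from Mvk, the only sterol enzyme that was not lower in the E14 cKO library. Capitals mark the box, which reads CCAAT on the strand of the gene or ATTGG where it lies on the other strand. Only the box at the centre of each stretch is marked, and the Mvk stretch holds a further copy in lower case.
Idi1 (chr13:8885541-8885585, plus strand): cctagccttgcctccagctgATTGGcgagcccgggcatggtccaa
Lss (chr10:76531523-76531567, plus strand): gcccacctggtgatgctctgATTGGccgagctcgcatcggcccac
Nsdhl (chrX:72918392-72918436, plus strand): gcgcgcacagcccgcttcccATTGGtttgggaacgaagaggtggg
Hsd17b7 (chr1:169969254-169969298, minus strand): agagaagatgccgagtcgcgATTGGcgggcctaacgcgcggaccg
Mvk (chr5:114444199-114444243, plus strand): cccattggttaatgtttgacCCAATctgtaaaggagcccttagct

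The first base of the box in capitals lay 45 bases before the start in Idi1, 62 in Lss, 109 in Nsdhl, 73 in Hsd17b7 and 50 in Mvk. The spelling TCACNCCAC, a strict form of the sterol regulatory element, was in 1 of the 13 sterol enzymes (Hmgcs1) and in 1.44% of all genes with a window, or 1.24% of all promoters. CACGTG, an E-box, was in the sterol enzymes Hsd17b7 and Dhcr7, in 2 of 5 regulators (Insig1 and Scap), in the fatty acid enzyme Elovl5 and in 8.09% of all genes, or 7.15% of all promoters. TTCNNNGAA, the spacing that STAT proteins bind, was found in Ebp alone among the sterol enzymes and in 9.55% of all genes with a window, or 8.30% of all promoters. All letters were searched on both strands, and no CCAAT overlapped another of these motifs in the members. A match describes the letters only, and its absence from a window says nothing of the factor.

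Stat3 itself stood at 7.41 FPKM in the E11 WT library, 6.74 in E11 cKO, 27.6 in E14 WT and 9.55 in E14 cKO. The cKO library thus held 0.346 of the WT level at E14 but 0.911 of it at E11, so Stat3 barely separated the E11 libraries and the E11 genotype is taken from the labels. Reads from exons outside the deletion can remain in either cKO library. The paper states that the knockout in neural progenitors is reached by E14. How far Stat3 was deleted in the E11 cKO library was not measured here. Ddx3y, a Y-linked gene, was at 25.1 FPKM in E14 cKO and at 0 to 0.0569 in the others, and Xist was at 0.0370 in E14 cKO and between 13.6 and 46.9 elsewhere, so the E14 libraries differed in sex as well as genotype. Neural progenitor markers summed to 1486 and 1686 FPKM at E11 and to 7312 and 7975 at E14, WT first. Fabp7 alone gave 5245 and 5929 FPKM of the E14 sums, whereas Pax6 (44.2 and 14.6) and Msi1 (21.2 and 4.25) were lower in E14 WT than in E11 WT. Between the E14 libraries, Hes5 was at 124 FPKM in WT and 294 in cKO, Notch1 at 9.49 and 16.1, and Msi1 at 4.25 and 7.03, whereas Vim was at 1556 and 1259 and Nes at 109 and 111. Between the E11 libraries, Hes5 was at 88.5 FPKM in WT and 137 in cKO and Nes at 41.2 and 63.4. The part of these differences in the sterol ratios was not tested. The 8 mesenchymal markers, among them collagen genes, summed to 1327 and 1172 FPKM at E11 but to 16.7 and 11.8 at E14, and none was at 0. Microglial markers (1.34 to 14.2 FPKM summed over 10 genes), endothelial markers (1.47 to 5.18 over 8) and red cell markers (1.79 to 29.9 over 7 entries) had smaller sums. Of these markers, Aif1 and Hba-x were at 0 in E14 WT and 1 red cell entry was at 0 in E11 cKO.

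The sterol enzymes were lowest in the E11 WT library in 14 of 14 cases and highest in the E14 WT library in 12 of 14, against 35.0% and 39.3% of all genes. Summed over the 14 enzymes, FPKM was 432 in E11 WT, 755 in E11 cKO, 1477 in E14 WT and 1087 in E14 cKO. Both cKO libraries thus lay between the WT libraries, and 11 of the 14 enzymes followed the order E11 WT, E11 cKO, E14 cKO, E14 WT, against 19.2% of all genes. The order of the cKO libraries depended on the scale. On the deposited values 12 of 14 enzymes were higher in E14 cKO than in E11 cKO, and 10 of 14 under upper-quartile scaling. As a percent of the summed FPKM of each library, however, the 14 enzymes took 0.0456% in E11 WT, 0.0936% in E11 cKO, 0.106% in E14 WT and 0.0743% in E14 cKO, so that E14 cKO was below E11 cKO. The 10 highest entries made up 36.0% to 49.9% of these library sums. The fatty acid enzymes summed to 634, 933, 1035 and 1077 FPKM in E11 WT, E11 cKO, E14 WT and E14 cKO. As a percent of each library sum they took 0.0669%, 0.116%, 0.0743% and 0.0737%, so that E11 cKO was highest. Of the 11 that passed the limit, 4 had the order E11 WT, E11 cKO, E14 cKO, E14 WT. In these bulk samples, fewer cells of a type and less RNA per cell cannot be told apart.

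**Figure D1:**
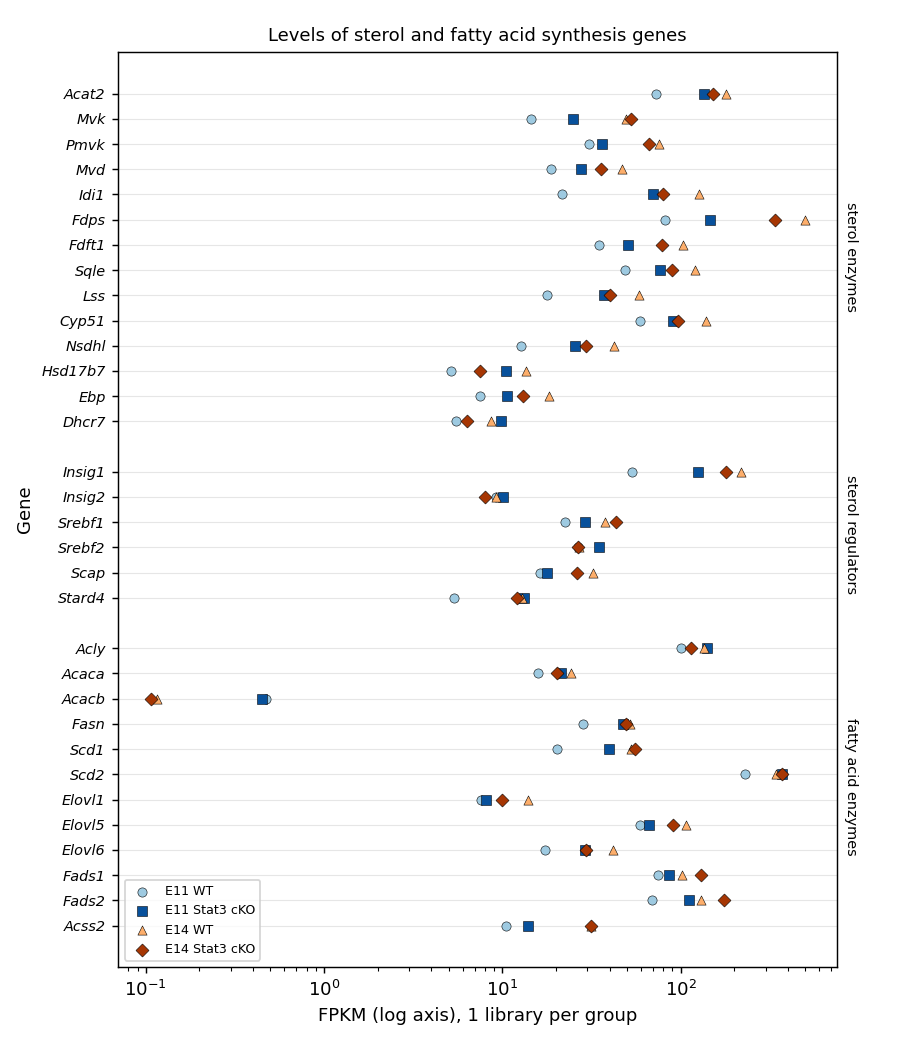
FPKM (log axis) of each of the 32 genes in the 4 libraries, grouped as sterol enzymes, sterol regulators and fatty acid enzymes, with 1 symbol per library and no error bars because each group has 1 library. The pale circles of E11 WT are the lowest of the 4 for all 14 sterol enzymes, and Acacb, far left, is the gene below the limit.

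Of the 4 comparisons, only that of genotypes at E14 used no library of the E11 contrast that led to the gene set. Here 13 of 14 sterol enzymes were lower in Stat3 cKO. Their median log2 ratio was -0.47, against -0.079 for all genes and -0.12 for the 7613 genes in the same range of mean FPKM. A ratio below 1 was common at this stage, being shared by 7475 of 12430 genes and by 5066 of those 7613. Only 2 sterol enzymes were at least 1.5-fold lower, Idi1 and Hsd17b7, where 7.67% of all genes were, and only Hsd17b7 stayed so under upper-quartile scaling. None was at least 1.5-fold higher, where 5.82% of all genes were. The sterol enzymes as a group were thus marked by many moderate differences in the same direction rather than by large ones. Their ratios ran from 0.552 to 1.07. Beside this, the summed markers of neurons were at 1246 FPKM in E14 WT and 1025 in E14 cKO. Those of astrocytes were at 501 and 611, and those of the oligodendrocyte lineage at 596 and 620, with none of these markers at 0. Slc1a3 (206 and 207) and Aldoc (193 and 235) gave most of the astrocyte sums. Aldh1l1 was at 78.6 and 136 FPKM and Aqp4 at 3.63 and 8.32. Of the astrocyte markers, only Gfap, below the limit on mean FPKM, was lower in cKO, at 0.901 and 0.186. Of the oligodendrocyte lineage markers, only Olig1 (345 and 311), Olig2 (168 and 134) and Mog were lower. Cnp was at 28.2 and 68.0 FPKM. The part of these markers in the sterol ratios was not tested.

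The fatty acid enzymes were divided at E14. Lower in cKO were 6 of 11, higher were 4, and Acss2 was at 31.3 FPKM in both, with a median log2 ratio of -0.07, and with Acss2 counted by its unrounded ratio, just above 1, the split of 6 lower and 5 higher became 5 and 6 when the median gene was set to a ratio of 1. None passed 1.5-fold in either direction. The lowest ratio was 0.700, for Elovl6, which lengthens palmitate, and the highest 1.35, for Fads2, the desaturase that starts the synthesis of long polyunsaturated fatty acids. The regulators were lower in cKO for 5 of 6 with none past 1.5-fold, and this count became 3 of 6 under upper-quartile scaling.

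At E11 the direction was the opposite. All 14 sterol enzymes, 11 of 11 fatty acid enzymes and 6 of 6 regulators were higher in the library labelled Stat3 cKO, with median log2 ratios of 0.81, 0.47 and 0.39 beside 0.059 for all genes. A ratio above 1 was common here too, in 7677 of 12430 genes. At least 1.5-fold higher were 10 of 14 sterol enzymes, 5 of 11 fatty acid enzymes and 2 of 6 regulators, where 2.18% of all genes were. No member was at least 1.5-fold lower, where 3.66% of all genes were. Since this contrast chose the genes, nothing is read from these counts. Idi1 had the 5th highest E11 ratio of the genes analysed. Neuron markers summed to 793 FPKM in E11 WT and 825 in E11 cKO, astrocyte markers to 274 and 280, and oligodendrocyte lineage markers to 78.3 and 100. Of the neuron markers, only Tubb3 (463 and 510), Gap43 and Stmn2 were higher in cKO, and Neurod6 was at 8.14 and 3.76. Of the astrocyte markers, only Gja1 (138 and 174), S100b and Aldoc were higher, and Slc1a3 was at 112 and 85.5. Pdgfra alone gave 53.1 and 68.7 FPKM of the oligodendrocyte lineage sums, and Olig1 was at 1.64 and 2.85. Red cell markers summed to 29.9 FPKM in E11 WT and 4.41 in E11 cKO, mostly from Hbb-y (22.4 and 3.07), and microglial markers to 14.2 and 9.60. Their part in the E11 ratios was not tested.

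**Figure D2:**
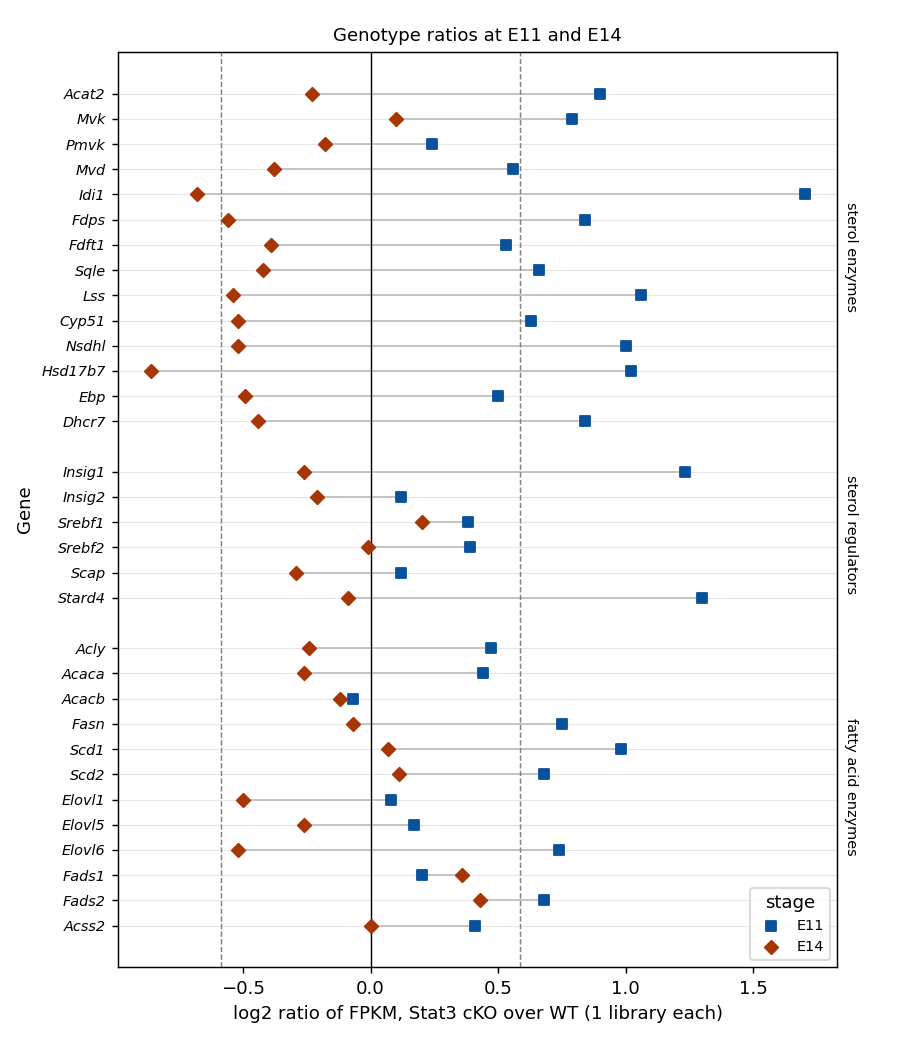
The log2 ratio of FPKM, Stat3 cKO over WT, for each gene at E11 (squares) and E14 (diamonds), joined by a line, with dashed lines at 1.5-fold either way and 1 library per group. The E11 squares of the sterol enzymes lie right of 0 for 14 of 14 and their E14 diamonds left of 0 for 13 of 14. Acacb is drawn although it was below the limit on mean FPKM.

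A difference of at least 1.25-fold up at E11 and at least 1.25-fold down at E14 was present in 11 of 14 sterol enzymes, 1 of 11 fatty acid enzymes (Elovl6) and 0 of 6 regulators, and in 3.32% of all genes. The sterol count depended on the scale. Under upper-quartile scaling Fdft1, Sqle, Dhcr7 and Mvd fell short of 1.25-fold at E14, with log2 ratios of -0.24, -0.26, -0.29 and -0.22. The share of all genes was not recomputed on that scale. The log2 genotype ratio at E14 minus that at E11 had a median of -1.14 over the sterol enzymes (range -2.38 to -0.41), of -0.58 over the fatty acid enzymes (range -1.25 to 0.16) and of -0.12 over all genes. These values include the E11 contrast and are not independent of the choice of genes.

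**Figure D3:**
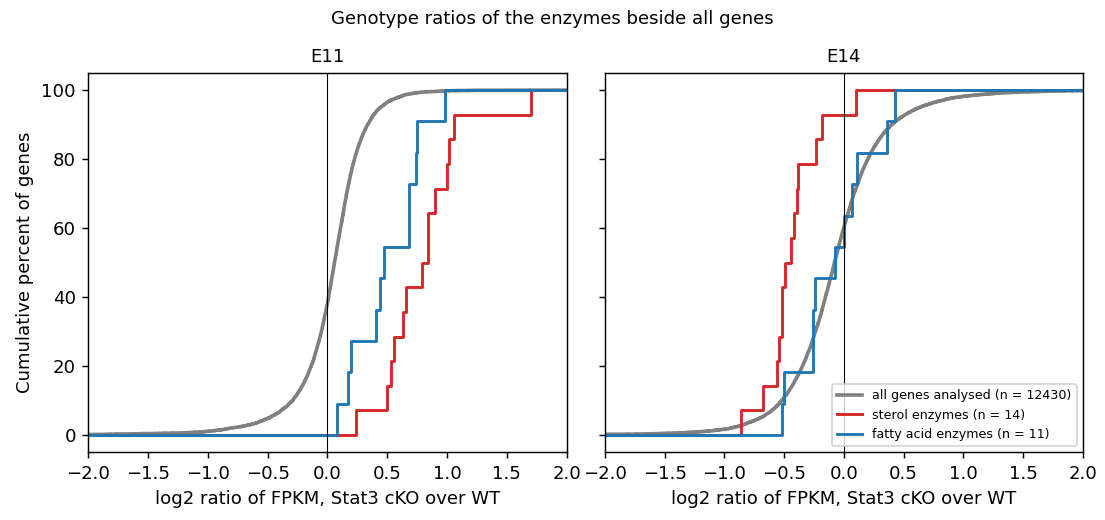
Cumulative percent of genes against the log2 ratio of FPKM, Stat3 cKO over WT, at E11 (left) and E14 (right), for all genes analysed (grey), 14 sterol enzymes (red) and 11 fatty acid enzymes (blue), drawn between -2 and 2. At E14 the red curve lies left of the grey one for most of its course, with medians of -0.47 and -0.079, while the blue curve runs close to the grey.

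The early enzymes, from acetyl-CoA to farnesyl diphosphate, included the gene that led to the set. Idi1 (chr13:8884851-8891642 as listed, on a build that the notes do not settle between mm8 and mm9), the isomerase that makes dimethylallyl diphosphate, was at 21.7 FPKM in E11 WT, 70.5 in E11 cKO, 127 in E14 WT and 79.6 in E14 cKO. Its cKO libraries were close to each other, while its WT libraries differed 5.86-fold. The genotype ratio was 3.25 at E11 and 0.625 at E14. Fdps, farnesyl diphosphate synthase and the most abundant sterol enzyme here, was at 82.3, 147, 496 and 337 FPKM in the same order. It had genotype ratios of 1.79 and 0.679.

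Acat2, the cytosolic thiolase that joins acetyl-CoA units, was at 73.1 FPKM in E11 WT, 136 in E11 cKO, 179 in E14 WT and 153 in E14 cKO. The E11 ratio was 1.86 and the E14 ratio 0.853, but Acat2 has a close copy, Acat3, and reads could be split between them. Mevalonate kinase, Mvk, was at 14.4, 24.9, 49.4 and 53.0 FPKM in that order. It was the only sterol enzyme with an E14 ratio above 1 (1.07). Phosphomevalonate kinase, Pmvk, was at 30.6, 36.1, 75.6 and 66.9 FPKM, and its E11 ratio of 1.18 was the lowest of the sterol enzymes. Mvd, the decarboxylase after it, had ratios of 1.47 at E11 and 0.770 at E14.

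The middle steps form and close the sterol skeleton. Sqle, the squalene epoxidase that is a control point of the pathway, was at 48.5 FPKM in E11 WT, 76.8 in E11 cKO, 120 in E14 WT and 89.6 in E14 cKO. Lanosterol synthase, Lss, was at 17.9, 37.3, 58.5 and 40.3 FPKM. Both had the order of the group as a whole, with E11 ratios of 1.58 and 2.08 and E14 ratios of 0.749 and 0.689. Fdft1, squalene synthase, had ratios of 1.44 and 0.763, and its listed locus overlaps that of Ctsb, which had ratios of 0.916 and 1.17.

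The late steps turn lanosterol into cholesterol. Cyp51, which removes the first methyl group, was at 58.9 FPKM in E11 WT, 91.2 in E11 cKO, 139 in E14 WT and 96.7 in E14 cKO. Hsd17b7 (chr1:171879667-171899336 as listed), a keto-reductase of the demethylation complex, was at 5.17, 10.5, 13.5 and 7.47 FPKM. Its E14 ratio of 0.552 was the lowest of all the members, and its E11 ratio was 2.03. Dhcr7, the last enzyme of one branch, was at 5.51, 9.83, 8.67 and 6.37 FPKM, with ratios of 1.79 and 0.735. It was the only sterol enzyme with its highest level in E11 cKO.

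Nsdhl, the decarboxylating dehydrogenase of the same complex, and Ebp, a sterol isomerase, lie on the X chromosome. Nsdhl was at 12.7 FPKM in E11 WT, 25.5 in E11 cKO, 42.6 in E14 WT and 29.6 in E14 cKO. The E14 ratios of 0.696 for Nsdhl and 0.711 for Ebp fell within the range of the autosomal enzymes. The part of the difference in sex between the E14 libraries in these ratios was not tested. The joined entry of Tm7sf2 and Vps51 had ratios of 1.27 at E11 and 1.18 at E14, and the share of Tm7sf2 in it is unknown.

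Among the regulators, Insig1 and Stard4 had the largest E11 ratios. Insig1, which holds SCAP in the endoplasmic reticulum and is also a target of SREBP2, was at 53.5 FPKM in E11 WT, 125 in E11 cKO, 217 in E14 WT and 181 in E14 cKO. Stard4, a sterol transfer protein, was at 5.34, 13.2, 12.9 and 12.1 FPKM. These were the only regulators with an E11 ratio past 1.5, at 2.34 and 2.47, and their E14 ratios were 0.833 and 0.940. For Stard4, E11 WT was low and the other libraries lay close together.

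Srebf2, the gene of the factor that drives the sterol enzymes, was at 26.5 FPKM in E11 WT, 34.8 in E11 cKO, 26.8 in E14 WT and 26.7 in E14 cKO. Its ratio was 1.31 at E11 and 0.995 at E14. On the deposited values its WT level was nearly equal at both stages, where the sterol enzymes were 1.57 to 6.03 times higher at E14. Under median and upper-quartile scaling its log2 stage ratio in WT was -0.20 and -0.36, while all 14 sterol enzymes stayed higher at E14. Srebf1 was at 22.4, 29.2, 37.7 and 43.2 FPKM, and was the only regulator with an E14 ratio above 1 (1.15), at a listed locus that overlaps Rai1. Scap was at 16.3, 17.8, 32.3 and 26.3 FPKM, with ratios of 1.09 and 0.816. Insig2, the second INSIG gene, was at 9.24, 10.1, 9.28 and 8.01 FPKM and was nearly equal in both WT libraries on the deposited values.

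The fatty acid arm begins with the supply of acetyl-CoA. Acly, which cleaves citrate, was at 101 FPKM in E11 WT, 140 in E11 cKO, 135 in E14 WT and 114 in E14 cKO, a narrow range beside that of the sterol enzymes. Acss2, which makes acetyl-CoA from acetate, was at 10.5, 13.9, 31.3 and 31.3 FPKM. Its level was the same in both E14 libraries. Acaca, the main acetyl-CoA carboxylase here, had ratios of 1.36 at E11 and 0.832 at E14. Its relative Acacb stood between 0.107 and 0.472 FPKM.

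Fasn, fatty acid synthase, was at 28.4 FPKM in E11 WT, 47.7 in E11 cKO, 52.0 in E14 WT and 49.4 in E14 cKO, so that E11 WT was low and the others were close. Its genotype ratios were 1.68 and 0.951. Elovl6 was at 17.4, 29.0, 42.0 and 29.4 FPKM, and with ratios of 1.67 and 0.700 it had the order of the sterol enzymes. Elovl5, an elongase of polyunsaturated fatty acids, had ratios of 1.13 and 0.834. Elovl1, for very long chains, was at 7.63, 8.06, 14.0 and 9.92 FPKM, with the lowest E11 ratio of the arm (1.06) and an E14 ratio of 0.706. The locus of Elovl1 overlaps that of the cell cycle gene Cdc20, which had ratios of 1.57 and 1.17.

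The desaturases differed from the elongases at E14. Scd1, a stearoyl-CoA desaturase, was at 20.2 FPKM in E11 WT, 39.8 in E11 cKO, 52.8 in E14 WT and 55.3 in E14 cKO. Its relative Scd2, the most abundant member of the arm, was at 231, 369, 343 and 371 FPKM. Fads2 was at 69.5, 111, 131 and 176 FPKM. All 4 desaturases were higher in cKO at both stages, with E14 ratios of 1.05 for Scd1, 1.08 for Scd2, 1.28 for Fads1 and 1.35 for Fads2, whereas the 3 elongases were lower at E14, at 0.700 to 0.834. This split into desaturases and elongases was noticed after the values had been seen.

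Between stages, both E11 libraries belong to the contrast that led to the gene set, and the E11 cultures carried far more mesenchymal RNA than the E14 cultures, as given above. In WT, the summed markers of neural progenitors were 4.92 times, those of astrocytes 1.83 times and those of the oligodendrocyte lineage 7.61 times as high at E14 as at E11, with Olig1 at 1.64 and 345 FPKM and Aldoc at 2.69 and 193. The part of these differences in the stage ratios was not tested. In WT, 14 of 14 sterol enzymes, 8 of 11 fatty acid enzymes and 4 of 6 regulators were at least 1.5-fold higher at E14, where 30.3% of all genes were, and none was at least 1.5-fold lower, where 18.9% of all genes were. Under upper-quartile scaling these shares of all genes became 15.9% and 30.2%, and the fatty acid enzymes at least 1.5-fold higher became 3 of 11. The stage ratio in WT ran from 1.57 (Dhcr7) to 6.03 (Fdps) over the sterol enzymes and from 1.33 (Acly) to 2.99 (Acss2) over the fatty acid enzymes. The medians on the log2 scale were 1.35 and 0.87, beside 0.21 for all genes.

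In Stat3 cKO the same step was smaller. At least 1.5-fold higher at E14 were 4 of 14 sterol enzymes, 3 of 11 fatty acid enzymes and 0 of 6 regulators, where 21.6% of all genes were. Only Dhcr7 was at least 1.5-fold lower (ratio 0.648), where 20.1% of all genes were. The median log2 stage ratio of the sterol enzymes was 0.22 in cKO. Those past 1.5-fold were Fdps (2.29), Mvk (2.13), Pmvk (1.85) and Fdft1 (1.55), and the fatty acid enzymes past it were Acss2 (2.25), Fads2 (1.58) and Fads1 (1.52). The rise from E11 to E14 was larger in WT than in cKO for 14 of 14 sterol enzymes and 10 of 11 fatty acid enzymes, against 62.1% of all genes. That comparison is the same quantity as the difference between the genotype ratios and adds nothing independent to it. The cKO libraries also differed in sex, with Xist at 39.7 FPKM in E11 cKO and 0.0370 in E14 cKO. Ddx3y was at 0 in E11 cKO and 25.1 FPKM in E14 cKO. In E11 WT and E14 WT, Xist was at 46.9 and 13.6 FPKM and Ddx3y at 0 and 0.0569. The part of sex in the cKO stage ratios, and in their comparison with WT, was not tested.

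**Figure D4:**
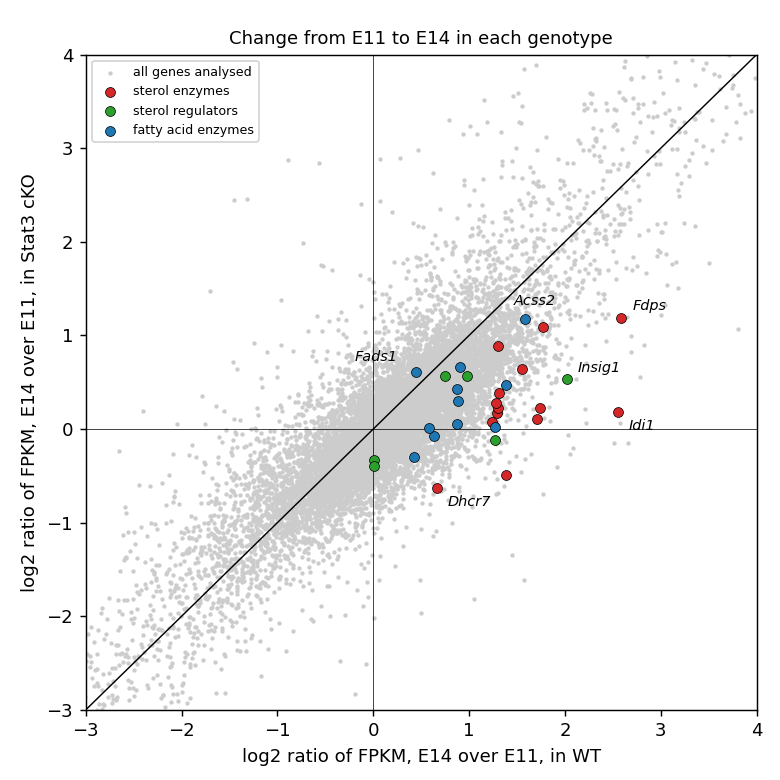
The log2 ratio of FPKM, E14 over E11, in Stat3 cKO (vertical axis) against WT (horizontal axis), with all genes analysed in grey, the members in colour and a line of equality. All 14 red sterol enzymes lie under the line, furthest for Idi1, and Fads1 is the only coloured point above it. Genes beyond the axes are not drawn.

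Further genes of both pathways were read from lists that were not trimmed by how they moved, though written with earlier results known. Of 23 other sterol genes above 1 FPKM, 4 were at least 1.5-fold higher and 1 lower at E11, and 4 were higher and 1 lower at E14. The shares of all genes were 2.18% higher and 3.66% lower at E11, and 5.82% and 7.67% at E14, so the counts of lower genes were near the background. Sc4mol (now Msmo1), the methyl oxidase of the late sterol steps, was at 67.6 FPKM in E11 WT, 123 in E11 cKO, 245 in E14 WT and 161 in E14 cKO, with ratios of 1.82 and 0.656. Sc5d, a late desaturase, was at 23.8, 35.8, 44.0 and 33.3 FPKM. Aacs, which makes acetoacetyl-CoA from ketone bodies, had ratios of 2.02 and 0.843. These 3 enzymes were named for passing 1.5-fold. The whole list of 23 had a median log2 ratio of 0.08 at E11 and -0.04 at E14, with 15 genes above 1 at E11 and 11 at E14, and Ggps1, which makes geranylgeranyl diphosphate, had an E11 ratio of 0.981 and Por, the electron donor of Cyp51, an E14 ratio of 1.19.

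Genes of sterol transport did not share a direction. Abca1, an exporter of cholesterol, was at 15.7 FPKM in E11 WT, 16.6 in E11 cKO, 2.62 in E14 WT and 8.89 in E14 cKO. Its E14 ratio was 3.40. Npc1, which moves cholesterol out of lysosomes, was at 12.4, 12.8, 13.7 and 21.3 FPKM, with an E14 ratio of 1.56. Vldlr, a lipoprotein receptor, had ratios of 0.663 at E11 and 0.876 at E14. Scarb1, a lipoprotein receptor that also takes up cholesterol, was at 9.88, 13.3, 32.0 and 24.0 FPKM, the order of most sterol enzymes, and the receptor Lrp8 had ratios of 1.11 and 0.943. Scarb1 and Lrp8 did not reach 1.5-fold and were added after their values had been seen.

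Of 29 other fatty acid genes above 1 FPKM, 3 were at least 1.5-fold higher and 0 lower at E11, and 1 was higher and 3 lower at E14, counts that at E14 were near the same shares of all genes. The genes lower at E14 were Acsl4 and Acsl5, which activate fatty acids, and Ptpla (now Hacd1), a dehydratase of chain elongation. Acsl5 was at 4.64 FPKM in E11 WT, 5.49 in E11 cKO, 23.2 in E14 WT and 12.1 in E14 cKO. Acsl4 had ratios of 1.64 at E11 and 0.658 at E14, and Ptpla 0.941 and 0.630. Pgd, an enzyme of the NADPH-producing pentose phosphate pathway, had ratios of 1.52 and 0.940.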

How the data were processed

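Neural progenitor RNA from 4 libraries, 1 per group, was sequenced. Per the methods, the authors checked reads with FastQC and used the TopHat and Cufflinks tools. The submitters' processing notes name Bowtie 0.12.2 and the builds mm8 and mm9 without a role, and the annotation is not given in the sources used here. The authors deposited FPKM values, which correct for transcript length and mapped fragments. Read numbers are not stated, so absolute depth is unknown. The values of genes under 0.5 FPKM gave relative depths of about 1.08 for E11 WT, 0.829 for E11 cKO and 0.939 for E14 WT, with E14 cKO as 1, from 27 to 42 genes each. Summed FPKM ran from 806587 to 1461770 and entries at 0 from 330 to 1589. Of the 21091 entries, 140 join several genes and were not split.

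Genes averaging 1 FPKM or more were analysed by plain ratios without a pseudocount, a value of 0 gave no ratio, and a ratio of at least 1.5 either way was counted. The members, gene lists and motifs were chosen with earlier results of these data known. Values in all libraries were printed for members with a genotype ratio of at least 1.5 either way, for the highest and lowest of each arm and for all regulators, and genes outside the members were named at that ratio with a mean of at least 5 FPKM. Mvk, Ctsb, Cdc20, Ddx3y, Xist, Scarb1, Lrp8, Ggps1, Por, single marker genes and the remaining members with ratios were also named, after their values had been seen. Alternatives were a pseudocount of 1, median and upper-quartile scaling, a minimum of 5 FPKM or none, and a threshold of 2. A gene of the other sterol list is not reported here. The steps were tested on simulated data. Python 3.11.15, numpy 2.4.6, pandas 2.3.3 and matplotlib 3.10.9 were used. FPKM positions and GRCm38.p6 promoter positions are on different builds and were not combined.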

Additional observations from a re-analysis of the deposited data

Results flagged for a closer look

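For 4 of the 74 members and further pathway genes that averaged 5 FPKM or more, the Stat3 cKO library was higher than WT by 1.5-fold or more at E11 and lower by as much at E14, as it was for 0.261% of the 9191 genes of that level, and the median of the sterol enzymes also changed sign between the stages. Of these genes, Idi1 and Hsd17b7, or 2, kept this with the median gene set to a ratio of 1 (0.141% of all), and 1, Hsd17b7, under upper-quartile scaling (0.12% of all). The log2 genotype ratio (Stat3 cKO over WT) at E14 minus that at E11 was -2.38 for Idi1, -1.88 for Hsd17b7, -1.47 for Sc4mol and -1.32 for Acsl4. Over the 14 sterol enzymes the median of this difference was -1.14. With 1 library per group, none of these differences was tested, and Idi1 was chosen by its E11 ratio.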

How the results depend on the processing

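Of 96 recomputed counts of members past the threshold, 82 stayed within 1.5 times the reported count and 14 did not. With a pseudocount of 1, the sterol enzymes lower at E14 than E11 in cKO went from 1 to 0. Upper-quartile scaling gave 1 sterol enzyme lower in cKO at E14, 3 fatty acid enzymes higher at E14 in WT, and in cKO 2 sterol enzymes lower and 1 fatty acid enzyme higher at E14. Without a filter, Acacb made 1 fatty acid enzyme lower at E14 in WT and 1 in cKO. At a threshold of 2, 4 sterol and 0 fatty acid enzymes were higher in cKO at E11 and 0 sterol enzymes lower in cKO at E14, while from E11 to E14 3 fatty acid enzymes were higher in WT, and in cKO 2 sterol enzymes and 1 fatty acid enzyme were higher and 0 sterol enzymes lower. The median log2 genotype ratio of the fatty acid enzymes at E14 turned to 0.0065 with the median gene set to 0 and to 0.081 under upper-quartile scaling. Median scaling shifted every WT stage ratio by -0.21, and upper-quartile scaling shifted those by -0.37, cKO stage ratios by -0.15 and E14 genotype ratios by 0.15. At E14, genes at least 1.5-fold higher and lower in cKO were then 905 and 706 (median) or 1128 and 550 (upper quartile), against 724 and 953 as reported, and at E11 181 and 559 or 165 and 574, against 271 and 455. From E11 to E14 they were 2612 and 3057 or 1973 and 3756 in WT, against 3767 and 2350, and 2421 and 2717 or 2027 and 3114 in cKO, against 2684 and 2501. The 14 sterol enzymes stayed higher at E11, and 13 of 14 lower at E14, under both scalings. The remaining limits are single libraries that cannot be left out in turn, unknown depth and the shared E11 libraries. The unlike sex of the E14 libraries, and of the cKO libraries, is a further limit.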
